A study of Mus musculus with 8 samples.

Results

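Epcam, its cleaving membrane protease matriptase (St14), the related protease prostasin (Prss8) and the Kunitz-type inhibitors HAI-1 (Spint1) and HAI-2 (Spint2) were followed in 4 murine mammary carcinoma cell lines profiled by RNA sequencing. The 5 genes were taken by symbol from the GENCODE annotation of GRCm38, and all 5 were found among the 53379 genes counted in each library. The lines were 687g and Epcam hi, both derived from tumours of the MMTV-PyMT-Snail-IRES-YFP reporter mouse, and pB3 and pB2, both derived from tumours of the MMTV-PyMT mouse. Each line had 2 replicate libraries. In this model the mouse mammary tumour virus promoter drives the polyoma middle T antigen, an oncoprotein, in mammary epithelium, so all lines carry that transgene. All were on a C57BL/6 background and grew untreated as adherent monolayers in DMEM/F12 with 5% adult bovine serum. The labels do not say whether a line is a clone or whether the replicates of a line were separate cultures, so p-values here measure the spread between these libraries, which may be technical. The study groups the lines as breast cancer models associated with epithelial-mesenchymal transition (EMT), in which epithelial cells lose junctions and polarity and take on mesenchymal traits.

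EpCAM is a transmembrane adhesion protein of epithelia that associates with claudin-7 at the lateral membrane, and its cytoplasmic part can be released by cleavage and act in the nucleus in human carcinoma cells. Matriptase is a transmembrane serine protease that works in a cascade with prostasin, a protease held in the membrane by a lipid anchor. HAI-1 and HAI-2 are transmembrane inhibitors with Kunitz domains that bind both proteases. In human and mouse intestinal epithelium matriptase cleaves EpCAM when HAI-2 is missing, which destabilises the complex of EpCAM with claudin-7, and lowered matriptase slows mammary tumours of MMTV-PyMT mice.

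Epcam (ENSMUSG00000045394) lies on chr17:87635979-87651129, plus strand. St14 (ENSMUSG00000031995) lies on chr9:31089402-31131853, minus strand. Prss8 (ENSMUSG00000030800) and Spint2 (ENSMUSG00000074227) are on chromosome 7, minus strand, at chr7:127925716-127930104 and chr7:29256323-29281912. Spint1 (ENSMUSG00000027315) lies on chr2:119237362-119249527, plus strand. Positions are those of GRCm38. St14 overlaps Gm16071 and Prss8 overlaps Kat8, each on the opposite strand, and the counting used strand. No annotated gene overlaps a member on its own strand.

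Promoters were matched for 3 of the 5 genes, Epcam, Spint1 and Spint2, and were searched for the E-box CACCTG, which Zeb and Snail repressors bind. Sequences are from RefSeq (GRCm38.p6), on the strand of the gene, and run from 250 bases before to 50 bases after the start of the gene in RefSeq. That start is the GENCODE start for Epcam and lies 2 bases upstream of it for Spint1 and 65 bases upstream for Spint2. The Epcam promoter is chr17:87635729-87636028, that of Spint1 chr2:119237110-119237409 and that of Spint2 chr7:29281928-29282227 on the minus strand. Capitals mark CACCTG or its reverse complement CAGGTG.
Epcam: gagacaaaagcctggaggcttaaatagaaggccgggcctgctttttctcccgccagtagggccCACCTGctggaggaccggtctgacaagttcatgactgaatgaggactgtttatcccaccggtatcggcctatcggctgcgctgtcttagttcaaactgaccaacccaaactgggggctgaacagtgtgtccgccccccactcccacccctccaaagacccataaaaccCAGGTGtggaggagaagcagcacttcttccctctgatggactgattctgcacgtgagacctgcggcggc
Spint1: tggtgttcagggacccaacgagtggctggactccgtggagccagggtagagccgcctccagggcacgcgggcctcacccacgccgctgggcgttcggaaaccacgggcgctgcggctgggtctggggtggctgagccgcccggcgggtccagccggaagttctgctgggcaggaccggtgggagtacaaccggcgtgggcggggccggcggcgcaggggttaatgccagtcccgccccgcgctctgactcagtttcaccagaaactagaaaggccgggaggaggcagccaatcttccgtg
Spint2: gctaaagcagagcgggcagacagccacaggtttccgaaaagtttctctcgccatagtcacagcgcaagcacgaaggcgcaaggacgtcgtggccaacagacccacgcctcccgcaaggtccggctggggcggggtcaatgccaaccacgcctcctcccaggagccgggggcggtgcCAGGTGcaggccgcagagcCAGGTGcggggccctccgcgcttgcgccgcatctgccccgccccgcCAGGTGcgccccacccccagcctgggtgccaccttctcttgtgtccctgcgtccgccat

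The Epcam promoter held this E-box at 2 places, starting 187 and 19 bases before the RefSeq start. The Spint2 promoter held it at 3 places, 74, 55 and 9 bases before its RefSeq start, and the Spint1 promoter did not hold these letters. Of 32851 mouse promoters of the same length, 20.2% held the E-box at least once, 2.88% at 2 or more places and 0.365% at 3 or more. The palindrome AACCGGTT, a consensus of the Grainyhead-like epithelial transcription factors, was in none of the 3 windows and in 0.146% of all promoters. The matches did not overlap each other. GC content was 57.0% for Epcam, 69.7% for Spint1 and 69.3% for Spint2. These matches describe 3 windows, and their part in the levels below was not tested.

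Total counts per library were 12442730 to 19149916, so 3 counts correspond to 0.159 to 0.222 CPM, that is, counts relative to the TMM-scaled total of a library. Replicates correlated across genes with r of 0.976 to 0.993, and the Epcam hi libraries differed most, with 13.4% of genes over 2-fold apart against 2.96% to 6.32% in the other lines. Mitochondrial genes took 0.375% to 1.90% of counts. Among 8 epithelial markers, summed levels were 2287 to 2672 CPM in 687g, 6873 to 7893 CPM in Epcam hi, 3280 to 3541 CPM in pB3 and 929 to 1020 CPM in pB2. Keratin 18 (Krt18) averaged 1113 CPM in 687g, while E-cadherin (Cdh1) averaged 1.32 CPM there, against 488 CPM in Epcam hi. In pB2 Krt18 averaged 212 CPM and Cdh1 155 CPM. Krt7 and Krt8 were also lower in pB2 (182 and 99.2 CPM) than in 687g (1137 and 226 CPM). Cldn7, Krt14 and Krt19 were higher in pB2 (115, 204 and 6.92 CPM) than in 687g (0.614, 0.452 and 0.754 CPM). Krt5 did not pass the filter. The sums in 687g thus rest mainly on Krt18, Krt7 and Krt8. Summed leukocyte markers (8 genes, 1 of them passing the filter) reached at most 2.84 CPM. Endothelial markers (6 genes) reached at most 0.940 CPM outside pB2 and 5.18 to 7.89 CPM in pB2. Erg alone had 4.88 and 7.36 CPM in pB2, where Cdh5, Kdr and Tek had no count. The 7 fibroblast markers summed to 15.8 to 21.2 CPM in 687g, 2.41 to 2.81 CPM in Epcam hi, 15.1 to 17.8 CPM in pB3 and 63.5 to 84.8 CPM in pB2. In pB2 the sum was mainly Pdgfra (43.6 and 59.6 CPM) and Col1a1 (16.1 and 20.7 CPM). Col1a2 and Lum had no count in pB2, and Dcn had 0.148 and 0 CPM. The 4 adipocyte markers, with Adipoq and Lep at 0 in every library, summed to 9.65 to 16.3 CPM in 687g and at most 1.85 CPM elsewhere. In 687g that sum was Fabp4 alone. The part of these other cell types' genes in the results was not tested.

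Epcam was among the most abundant messages of the Epcam hi line and nearly lost in 687g. The labels do not say whether the line named for Epcam was selected by it. It stood at 3.85 and 3.69 CPM in 687g, 1408 and 1535 CPM in Epcam hi, 278 and 264 CPM in pB3, and 578 and 552 CPM in pB2. No libraries of different lines overlapped, and every neighbouring pair in the order Epcam hi, pB2, pB3, 687g differed by edgeR's quasi-likelihood test. In these bulk samples, fewer cells that express a gene and less RNA per cell cannot be told apart. On the TPM scale, which corrects for length and so allows genes to be compared, Epcam reached 1948 and 2029 TPM in Epcam hi and ranked 48 and 49 among 21865 protein-coding genes. It ranked 168 to 180 in pB2 and 471 to 482 in pB3, and at 4.86 and 4.13 TPM it ranked 8881 to 9046 in 687g. Thus 687g had 0.256% of the CPM level of Epcam hi, and pB3 still had 18.4% of it.

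**Figure D1:**
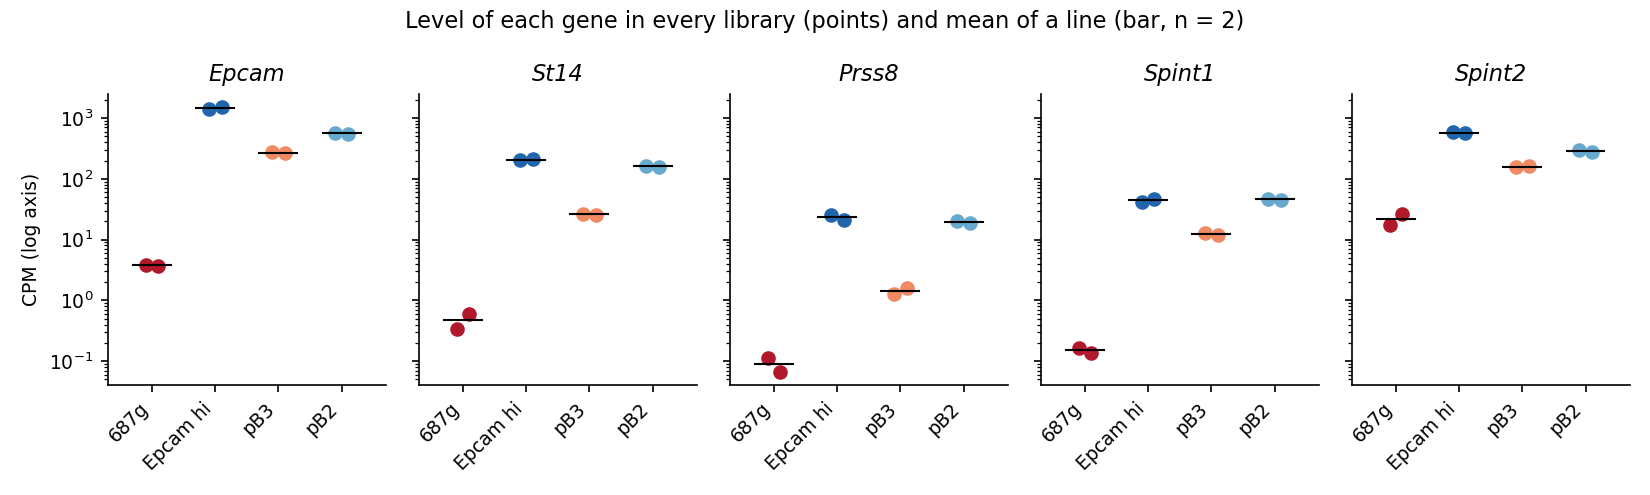
Level of the 5 genes in CPM (log axis) in each of the 8 libraries (points, coloured by line) with the mean of the 2 libraries of a line (bar). The 687g points lie lowest in every panel, from 0.0671 CPM for Prss8 to 26.0 CPM for Spint2, and the pB3 points lie between those of 687g and pB2.

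St14, the matriptase gene, was high in Epcam hi and pB2, low in pB3 and almost undetected in 687g. Its level was 0.335 and 0.604 CPM in 687g, from 6 and 9 counts, 204 and 208 CPM in Epcam hi, 26.3 and 25.8 CPM in pB3, and 165 and 155 CPM in pB2. Libraries of different lines did not overlap. Epcam hi and pB2, the top of the order, did not differ by the test (log2 fold change 0.37, 95% interval -0.01 to 0.74, adjusted p = 0.0917), whereas pB3 had 12.6% of the Epcam hi level and 687g 0.228%.

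Prss8, which encodes prostasin, showed the same order from a lower level. It had 0.112 and 0.0671 CPM in 687g, that is 2 and 1 counts, 25.6 and 20.8 CPM in Epcam hi, 1.28 and 1.62 CPM in pB3, and 19.9 and 19.0 CPM in pB2. The pB3 libraries, with 44 counts in all, lay closer to 687g than to pB2 on the linear scale, at 6.24% of the Epcam hi level. On the log2 scale the 2 steps were of similar size, -3.88 for 687g over pB3 and -3.74 for pB3 over pB2. The libraries of Epcam hi and pB2 did not overlap, yet their difference missed the threshold (log2 fold change 0.25, interval -0.21 to 0.72, adjusted p = 0.345). In 687g the 3 counts over both libraries lie at the limit of what this depth can show.

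Spint1, the gene of HAI-1, had 0.167 and 0.134 CPM in 687g (3 and 2 counts), 42.3 and 46.9 CPM in Epcam hi, 12.8 and 12.0 CPM in pB3, and 47.1 and 44.9 CPM in pB2. It alone of the 5 had its highest mean in pB2, and its Epcam hi and pB2 libraries overlapped (log2 fold change -0.04, interval -0.42 to 0.33, adjusted p = 0.851). Spint2, the gene of HAI-2, kept the most of its level in 687g. It stood at 17.7 and 26.0 CPM in 687g, 579 and 569.9 CPM in Epcam hi, 156 and 161 CPM in pB3, and 299 and 276 CPM in pB2. No Spint2 libraries of different lines overlapped, and 687g had 3.80% of the Epcam hi level, a share of the highest line that was at most 0.385% for the other 4 genes.

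Within the Snail-IRES-YFP model, all 5 genes were lower in 687g than in Epcam hi. Of 15890 genes tested, 36.4% differed, 18.0% being lower and 18.4% higher in 687g, at an adjusted p under 0.05 (edgeR quasi-likelihood test, Benjamini-Hochberg adjustment over all genes tested), and the median log2 fold change was -8.12 for the 5 genes against -0.03 for all genes. Epcam fell by 8.60 on the log2 scale (SE 0.24, 389-fold, adjusted p = 7.74e-11). St14 fell by 8.79 (SE 0.28, 442-fold, adjusted p = 1.35e-10). These ranked 67 and 52 from the bottom of all genes tested. Among the inhibitors, Spint1 fell by 8.12 (SE 0.31, 279-fold, adjusted p = 3.33e-10), and Spint2 fell by 4.72 (SE 0.22, 26.3-fold, adjusted p = 1.97e-09), with a rank of 453. For Prss8 the adjusted p was 3.07e-09, and the ratio of Epcam hi to 687g was 251 with a 95% counting interval of 85.5 to 1218, because 687g had only 3 counts. The intervals of the fitted log2 fold changes of Spint1 (-8.80 to -7.45) and Spint2 (-5.20 to -4.24) did not overlap. SE is the fitted change divided by the square root of its F statistic, and the intervals are built from it. DESeq2, an alternative test, gave an SE of 0.68 for Spint1, 0.88 for Prss8 and 0.415 for St14, against 0.21 for Epcam and 0.20 for Spint2. SE and intervals of genes with few counts in 687g, here and below, may thus be too narrow.

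In the MMTV-PyMT pair the same 5 genes were again lower in pB3 than in pB2, by much smaller amounts and in another order. Here 44.8% of all genes passed the test, 23.2% being lower and 21.6% higher in pB3, with a median log2 fold change of -1.89 for the 5 genes and 0.02 for all genes. The proteases changed most, with a log2 fold change of -3.74 ± 0.27 (SE) for Prss8, or 13.4-fold (adjusted p = 7.92e-08), and -2.62 ± 0.19 for St14, or 6.13-fold (adjusted p = 6.53e-08). Spint1 followed at -1.89 ± 0.19 (3.71-fold, adjusted p = 1.70e-06). Epcam was lower by a log2 fold change of -1.06 ± 0.17 (2.09-fold, adjusted p = 1.31e-04), and Spint2 by -0.86 ± 0.19 (1.81-fold, adjusted p = 0.00227). The 95% interval of St14 (-3.02 to -2.22) lay below those of Epcam (-1.42 to -0.70) and Spint2 (-1.27 to -0.44).

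The drop was larger in the Snail-IRES-YFP pair for each of the 5 genes. The pairs share no library, and the difference between the contrasts (687g over Epcam hi less pB3 over pB2) was fitted in the same model. It was -7.54 ± 0.27 on the log2 scale for Epcam (adjusted p = 2.05e-10) and -6.17 ± 0.33 for St14 (adjusted p = 6.03e-09). All 5 genes passed this test, as did 37.7% of all genes, 19.5% with a lower and 18.2% with a higher contrast in the Snail-IRES-YFP pair. The difference was smallest for Spint2, at -3.86 ± 0.28 (adjusted p = 1.18e-07), and for Prss8, at -4.13 ± 0.57 (adjusted p = 6.09e-05), while Spint1 had -6.23 ± 0.39 (adjusted p = 2.84e-08). Origin of the line, mouse and tumour cannot be told apart in this difference, since each line is 1 line from 1 model.

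Between Epcam hi and pB2, the lines with the highest levels of the 5 genes, Epcam and Spint2 were higher in Epcam hi and the other 3 genes did not pass the test. In that comparison 51.4% of all genes passed the test, 25.8% upward and 25.6% downward in Epcam hi, and the median log2 fold change was 0.37 for the 5 genes against 0.06 for all genes. Epcam was 2.61-fold higher (log2 fold change 1.38 ± 0.17, adjusted p = 1.06e-05) and Spint2 2.00-fold higher (1.00 ± 0.19, adjusted p = 6.25e-04). For St14, Prss8 and Spint1 the intervals given above exclude a log2 difference of more than 0.74 in either direction.

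All 5 genes were also lower in 687g than in pB3. There 25.8% of all genes passed the test, 12.9% being lower and 12.8% higher in 687g, and the median was -5.81 for the 5 genes against 0.00 for all genes. Spint1 was 77.5-fold lower (log2 fold change -6.28 ± 0.33, adjusted p = 1.30e-08), Epcam 71.7-fold lower (-6.16 ± 0.22, adjusted p = 1.78e-09) and St14 55.9-fold lower (-5.81 ± 0.28, adjusted p = 6.39e-09). Spint2 was 7.27-fold lower (-2.86 ± 0.21, adjusted p = 2.50e-07). Prss8, already low in pB3, had a ratio of pB3 to 687g of 15.9 with a counting interval of 5.09 to 79.9 (adjusted p = 7.96e-05).

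The remaining comparisons share their libraries with those above, and their values are given side by side without further comparison. Epcam hi over pB3 gave 5 genes higher, where 29.4% of all genes passed, 14.6% being higher and 14.8% lower, with a median of 2.44 for the 5 genes and 0.04 for all genes. The fold was 15.9 for Prss8, 7.91 for St14, 5.43 for Epcam, 3.62 for Spint2 and 3.60 for Spint1, with a highest adjusted p of 7.01e-06 for Spint2. In 687g over pB2, 5 genes were lower, where 52.3% of all genes passed, 26.7% being lower and 25.6% higher, with a median of -7.62 for the 5 genes and 0.03 for all genes. The fold was 343 for St14, 288 for Spint1, 149.5 for Epcam and 13.2 for Spint2, and the ratio of pB2 to 687g for Prss8 was 212 with a counting interval of 72.3 to 1032. With total counts in place of TMM scaling, 37.6% in place of 48.2% of called genes were higher in pB3 than in pB2, and 37.4% in place of 48.9% were higher in 687g than in pB2. The 5 genes kept their direction and call under that scaling in all 6 comparisons.

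**Figure D2:**
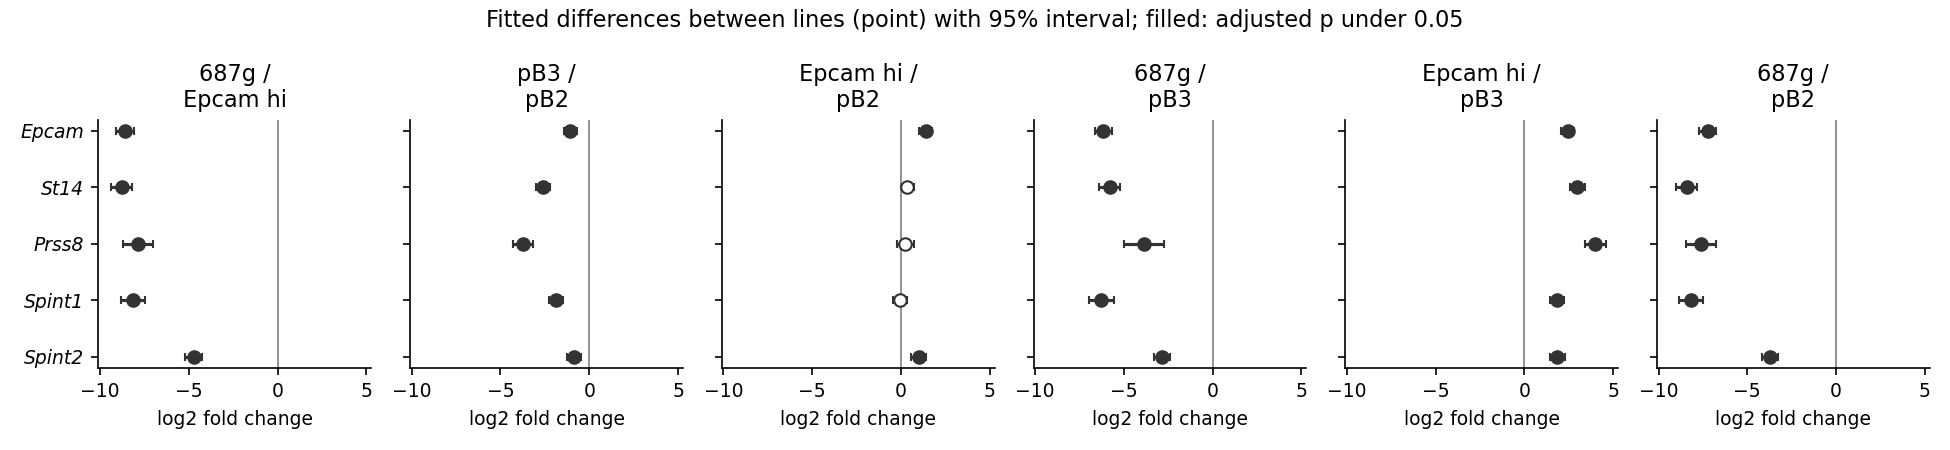
Fitted log2 fold changes (horizontal axis) of the 5 genes in the 6 comparisons between lines, first line over second, with 95% intervals. Intervals of St14, Prss8 and Spint1 in comparisons with 687g may be too narrow, because 687g had few counts. Filled points passed an adjusted p of 0.05 (edgeR). Points lie left of 0 in the 4 comparisons with 687g or pB3 on top, Spint2 least far, and the open points, St14, Prss8 and Spint1, are all in Epcam hi against pB2.

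The balance of protease to inhibitor messages differed between lines. It was taken per length, in TPM, within each library, and with 2 libraries a line it is a description, since an exact permutation test of 2 against 2 cannot go below p = 0.333. St14 over the sum of Spint1 and Spint2 was 0.0111 and 0.0137 in 687g, 0.188 and 0.192 in Epcam hi, 0.0886 and 0.0851 in pB3, and 0.261 and 0.265 in pB2. Inhibitor messages thus exceeded matriptase messages in every library, and the lines did not overlap in this ratio. Prss8 over the same sum was 0.0153 and 0.00629 in 687g, 0.0969 and 0.0792 in Epcam hi, 0.0177 and 0.0220 in pB3, and 0.130 and 0.134 in pB2. Here 687g and pB3 lay close together, the 687g values resting on 2 and 1 counts of Prss8.

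The makeup of the inhibitor pool also changed. Spint2 over Spint1 was 64.2 and 118 in 687g, where it rests on 3 and 2 counts of Spint1, 8.32 and 7.38 in Epcam hi, 7.44 and 8.14 in pB3, and 3.86 and 3.73 in pB2. HAI-2 messages thus outnumbered those of HAI-1 in every library, the least in pB2 and the most in 687g, while Epcam hi and pB3 overlapped. Prss8 over St14 was 0.517 and 0.413 in Epcam hi, 0.200 and 0.258 in pB3, and 0.498 and 0.505 in pB2, so pB3 was the lowest of these lines. The 687g values of this ratio, 1.37 and 0.458, come from 3 counts of Prss8 and 15 of St14. Epcam over Spint2 was 0.452 and 0.294 in 687g, 5.04 and 5.59 in Epcam hi, 3.69 and 3.40 in pB3, and 4.01 and 4.16 in pB2, so that in 687g alone the Spint2 message was the more abundant per length.

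**Figure D3:**
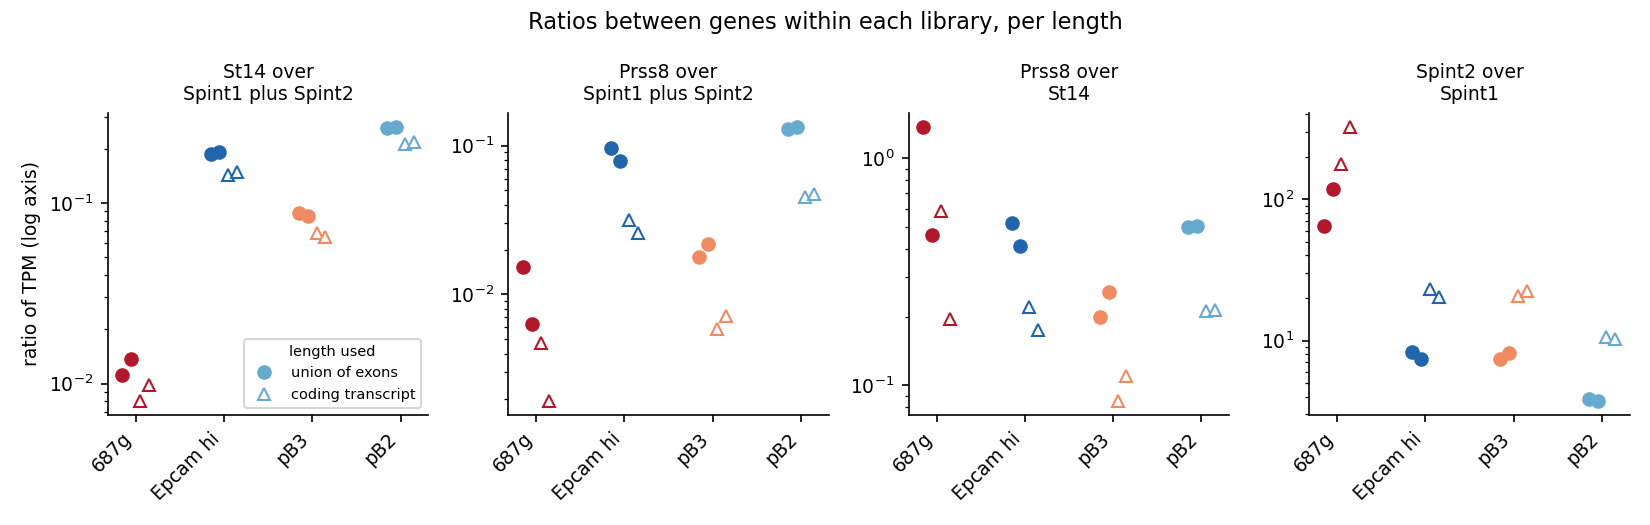
Ratios between genes within each library, per length (log axis), for the 4 lines. Circles use the length of the union of exons and triangles the longest coding transcript. For St14 over the inhibitors, pB2 lies highest at 0.261 and 0.265, then Epcam hi, pB3 and 687g, under either length. For Spint2 over Spint1 the 687g points lie highest, at 64.2 and 118.

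Lengths set the absolute size of these ratios, because transcripts other than the longest coding one add to the exon union of St14 (7637 bases, 3259 in the longest coding transcript) and Spint2 (4556 and 1384 bases). With coding lengths, Spint2 over Spint1 became 177 and 326 in 687g, 23.0 and 20.4 in Epcam hi, 20.5 and 22.5 in pB3, and 10.7 and 10.3 in pB2. Epcam over Spint2 became 0.148 and 0.0962 in 687g, 1.65 and 1.83 in Epcam hi, 1.21 and 1.11 in pB3, and 1.31 and 1.36 in pB2. The order of the lines in St14 over the inhibitors was the same under both lengths.

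Genes with the most similar pattern were sought among 9205 genes with a mean of at least 10 CPM, by the root mean square (RMS) difference of log2 CPM centred on each gene's mean over the 8 libraries. The nearest gene to Epcam was Cldn7, which encodes claudin-7, its binding partner at the lateral membrane, with an RMS difference of 0.20. Cldn7 averaged 0.614 CPM in 687g, 374 CPM in Epcam hi, 49.3 CPM in pB3 and 115 CPM in pB2. Crb3, a Crumbs polarity protein, and Cgn, the tight junction protein cingulin, followed with RMS differences of 0.35 and 0.36. For St14 the nearest were Serpinb5, the serpin maspin (0.28), Mpzl2, an epithelial adhesion molecule (0.31), and Ap1m2, an epithelial clathrin adaptor subunit (0.40). Serpinb5 averaged 1.05 CPM in 687g, 340 CPM in Epcam hi, 46.8 CPM in pB3 and 415 CPM in pB2. For Prss8 they were Myh14, a non-muscle myosin heavy chain (0.28), the kinase Tnk1 (0.40) and the flippase Atp8a1 (0.47). For Spint1 they were the kinase Dapk2 (0.24), Lsr, a protein of tricellular junctions (0.35), and Atp9a, a flippase relative (0.47). For Spint2 they were the p38 kinase Mapk13 (0.37), the phosphatase Dusp18 (0.38) and the lipid transfer protein Pctp (0.39).

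Among themselves, Epcam, St14 and Spint1 were the closest, with RMS differences of 0.53 between St14 and Spint1, 0.56 between Epcam and Spint1 and 0.59 between Epcam and St14. Prss8 differed from these 3 by 0.98 to 1.24, and Spint2 from the other 4 by 1.26 to 1.67. From Spint2, the other members ranked 205 to 2148 among the genes compared, whereas St14 ranked 7 from Spint1. These likenesses are descriptions over 8 libraries of 4 lines that share depth and scaling. The log2 CPM used here include a prior count of 2, which draws levels near 0 upward. Distances of Prss8 and Spint1, with 3 and 5 counts in 687g, thus depend partly on it. So do those of Crb3 and Cgn, at means of 0 and 0.0279 CPM in 687g.

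**Figure D4:**
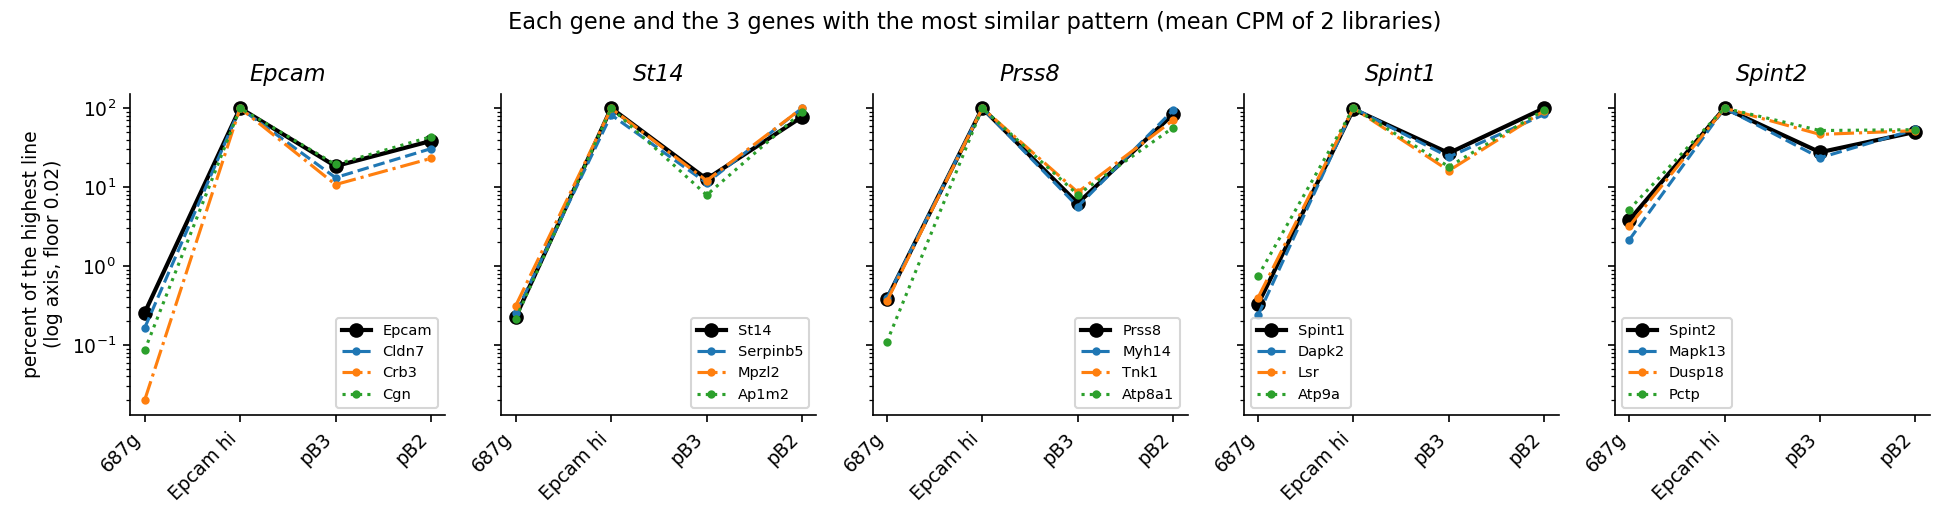
Mean CPM of 2 libraries in each line as a percent of the highest line (log axis, values under 0.02 drawn at 0.02) for each of the 5 genes (black) and its 3 most similar genes. The Cldn7 curve runs beside that of Epcam, and the Spint2 panel falls least in 687g, to 3.80%.

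Genes near the 5 on their chromosomes had median log2 fold changes of -0.61 to 0.46 over the 6 comparisons. Over the 20 nearest tested genes, the median log2 fold change of 687g over Epcam hi was 0.46 around Epcam, -0.05 around St14, 0.00 around Prss8, -0.05 around Spint1 and 0.03 around Spint2. In pB3 over pB2 these medians were 0.09, 0.22, 0.05, -0.47 and 0.19 in the same order of genes. Around Spint1, 9 of these 20 genes were lower and 3 higher in pB3. In 687g over pB2 the median around Spint1 was -0.61, with 9 lower and 6 higher. Over the 100 nearest genes the medians of pB3 over pB2 were -0.08 around Spint1 and -0.37 around Spint2, and that of 687g over pB2 around Spint1 was 0.11. Next to Epcam, Calm2, a calmodulin gene, was higher in 687g than in Epcam hi (log2 fold change 0.69, adjusted p = 0.00923).

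The partners of EpCAM at the membrane included genes that moved with Epcam and genes that did not. The counts of the lists below stand beside 36.4% of all genes that passed the test in 687g against Epcam hi and 44.8% in pB3 against pB2. Of 10 partner genes (claudins, tetraspanins and Cd44), 6 were lower and 2 higher in 687g than in Epcam hi, with a median log2 fold change of -1.79. Cldn7 had 0.558 and 0.671 CPM in 687g, against 353 and 396 CPM in Epcam hi (log2 fold change -9.24 ± 0.26, adjusted p = 7.74e-11). Cldn4, a second claudin of epithelia, had 2.29 and 1.07 CPM in 687g, against 1086 and 791 CPM in Epcam hi (-9.09 ± 0.37, adjusted p = 5.36e-10). In pB3 over pB2 the same list gave 7 higher and 2 lower with a median of 1.73. The 2 lower genes, named after their values were seen, were Cldn7, with 49.4 and 49.2 CPM in pB3, against 116 and 114 CPM in pB2 (-1.22 ± 0.17, adjusted p = 4.22e-05), and Cldn3, with 38.8 and 46.1 CPM in pB3, against 85.3 and 73.3 CPM in pB2 (-0.90 ± 0.18, adjusted p = 8.63e-04). Among the higher genes, Cd44, the hyaluronan receptor, had 1347 and 1380 CPM in pB3, against 47.6 and 53.3 CPM in pB2 (4.75 ± 0.22, adjusted p = 9.81e-10). Cldn4 had 122 and 126 CPM in pB3, against 20.3 and 13.1 CPM in pB2 (2.90 ± 0.27, adjusted p = 1.13e-06). Cd44 averaged 2022 CPM in Epcam hi and 544 CPM in 687g, so it was lowest in pB2.

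Genes of EpCAM shedding, of the gamma-secretase that releases its cytoplasmic part, and of its nuclear signalling showed no common direction, with shares of called genes near those of all genes. Of 13, 4 were higher and 2 lower in 687g than in Epcam hi (median 0.21), and 4 were higher and 3 lower in pB3 than in pB2 (median 0.30). Adam10, a sheddase, had 738 and 416 CPM in 687g, against 124 and 131 CPM in Epcam hi (log2 fold change 2.18 ± 0.24, adjusted p = 6.21e-06). Aph1b, a gamma-secretase subunit, had 16.3 and 12.4 CPM in 687g, against 2.46 and 3.01 CPM in Epcam hi (2.39 ± 0.25, adjusted p = 4.05e-06). Fhl2, which joins the released EpCAM fragment in human cells, had 117 and 124 CPM in pB3, against 0.740 and 0.477 CPM in pB2 (7.65 ± 0.33, adjusted p = 7.19e-10). It averaged 149 CPM in Epcam hi and 93.9 CPM in 687g, so it was low in pB2 alone. Bace1, the beta-secretase, had 62.4 and 62.8 CPM in pB3, against 22.8 and 28.4 CPM in pB2 (1.29 ± 0.22, adjusted p = 2.28e-04).

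Of 19 genes listed as other membrane-anchored serine proteases, 7 passed the filter on low counts and 4 were at 0 in every library. Whether each of them, Prss22 included, is held in the membrane was not checked. The lines differed in which of these genes they expressed. In 687g against Epcam hi, 5 of the 7 were lower and 1 higher, with a median of -2.88, or -2.34 with genes at 0 in a line held at 3 counts. Prss22 had 44.5 and 70.5 CPM in 687g, against 575 and 269 CPM in Epcam hi (log2 fold change -2.88 ± 0.31, adjusted p = 6.76e-06), and Tmprss11f had 9.70 and 11.1 CPM in 687g, against 0.984 and 1.31 CPM in Epcam hi (3.16 ± 0.34, adjusted p = 1.06e-05). In pB3 against pB2, 3 were higher and 3 lower (median 2.15). That median is the value of Prss27, named after its values were seen, which was not called (adjusted p = 0.262). It lay near the floor, at means of 0.167 CPM in pB3 and 0.0370 CPM in pB2, so the median shows no shift of the list. Hepsin (Hpn), which like matriptase is a type II transmembrane protease, had no count in pB3 and 38.0 and 36.4 CPM in pB2, and was thus at least 375-fold lower in pB3, with 3 counts over the line as the floor. Tmprss13 had 0.0671 and 0 CPM in pB3, against 55.8 and 51.5 CPM in pB2. The ratio of pB2 to pB3 was 1617 with a counting interval of 290 to 63898 from 1 count. Hpn and Tmprss13 were also low in Epcam hi, where the 5 genes were high, at means of 0.195 and 0.223 CPM.

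Substrates and receptors of the proteases gave 7 lower and 1 higher among 10 tested of 16 in 687g against Epcam hi (median -1.48), and 7 higher and 2 lower in pB3 against pB2 (median 1.64). F2rl1, the protease-activated receptor PAR2, had 0.279 and 0.470 CPM in 687g, against 9.48 and 13.6 CPM in Epcam hi (log2 fold change -4.95 ± 0.36, adjusted p = 1.02e-07). Pdgfc, a growth factor released by proteolysis, had 23.1 and 23.2 CPM in 687g, against 1.76 and 2.02 CPM in Epcam hi (3.60 ± 0.26, adjusted p = 1.17e-07). Plau, the urokinase gene, had 924 and 1010 CPM in pB3, against 7.32 and 4.87 CPM in pB2 (7.32 ± 0.36, adjusted p = 1.89e-09). Its proenzyme is a matriptase substrate. In the other pair, given after its values were seen, Plau had 258 and 324 CPM in 687g, against 3248 and 1746 CPM in Epcam hi (-3.10, adjusted p = 1.22e-06). Pdgfd, a relative of Pdgfc, had 61.9 and 65.0 CPM in pB3, against 0.518 and 0 CPM in pB2 (8.12 ± 0.52, adjusted p = 2.45e-08).

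Other inhibitors of serine proteases showed no common direction. Of 9 tested of 16, 3 were higher and 1 lower in 687g than in Epcam hi (median -0.42), and 4 were higher and 3 lower in pB3 than in pB2 (median 0.48). Serpinb5 had 0.892 and 1.21 CPM in 687g, against 284 and 397 CPM in Epcam hi (log2 fold change -8.35 ± 0.29, adjusted p = 1.72e-10). Tfpi, a Kunitz inhibitor of coagulation proteases, had 12.3 and 14.6 CPM in 687g, against 0.703 and 0.711 CPM in Epcam hi (4.23 ± 0.38, adjusted p = 1.88e-06). Serpine2, protease nexin-1, had 5.57 and 5.50 CPM in pB3, against 277 and 251 CPM in pB2 (-5.57 ± 0.29, adjusted p = 3.15e-09). Slpi, a small secreted inhibitor that is neither a Kunitz protein nor a serpin, had 2.48 and 2.13 CPM in pB3, against 117 and 103 CPM in pB2 (-5.57 ± 0.26, adjusted p = 1.41e-09). Serpine2 and Slpi were also lower in Epcam hi than in pB2, at means of 24.4 and 2.50 CPM in Epcam hi.

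Transcription and splicing regulators of epithelial genes were mostly lower in 687g than in Epcam hi and in pB3 than in pB2. Of 12, 8 were lower and 1 higher in 687g than in Epcam hi (median -6.64, or -4.91 with 4 genes at 0 in a line held at 3 counts), and 10 were lower and 2 higher in pB3 than in pB2 (median -3.84, or -3.69 in the same way). Esrp1, an epithelial splicing regulator, had 0.335 and 0.134 CPM in 687g, against 96.7 and 119 CPM in Epcam hi (log2 fold change -8.75 ± 0.33, adjusted p = 2.85e-10). Elf3, an epithelial ETS factor, had no count in 687g and 20.9 and 17.3 CPM in Epcam hi, at least 207-fold lower in 687g. Elf5, an ETS factor of the mammary alveolar lineage, had no count in pB3 and 51.8 and 51.3 CPM in pB2, at least 521-fold lower in pB3. Ehf, another ETS factor, had 0.269 and 0 CPM in pB3, against 67.1 and 84.4 CPM in pB2 (-9.08 ± 0.47, adjusted p = 3.14e-09). Elf5 and Ehf were also low in Epcam hi, where the 5 genes were high, at means of 0.0351 and 2.64 CPM. Named after their values were seen, Grhl1 and Grhl3 averaged 0.344 and 0.0625 CPM in Epcam hi, against 18.2 and 1.19 CPM in pB2. Klf4 and Klf5 had their lowest means in pB2, at 0.323 and 8.68 CPM. Grhl2, Ovol1, Ovol2, Elf3, Esrp1 and Esrp2 were lower in both pairs and not called lower in Epcam hi than in pB2.

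Repressors of epithelial genes mostly ran the other way. Of 7, 6 were higher and none lower in 687g than in Epcam hi (median 3.04), and 6 were higher and 1 lower in pB3 than in pB2 (median 2.49). Zeb1, which encodes a repressor that binds E-boxes, had 49.5 and 41.4 CPM in 687g, against 0.351 and 1.04 CPM in Epcam hi (log2 fold change 5.95 ± 0.34, adjusted p = 1.09e-08). In the other pair Zeb1 had 27.1 and 27.9 CPM in pB3, against 0.148 and 0.0530 CPM in pB2, a ratio of pB3 to pB2 of 297 with a counting interval of 101 to 1444 from 3 counts in pB2. Zeb2, its relative, had 39.4 and 36.2 CPM in pB3, against 1.48 and 1.64 CPM in pB2 (4.58 ± 0.26, adjusted p = 6.69e-09). Twist2, a helix-loop-helix factor, had 29.1 and 28.0 CPM in 687g, against 0 and 0.219 CPM in Epcam hi (7.78 ± 0.45, adjusted p = 1.12e-08). The Snail genes Snai1 and Snai2, named after their values were seen, each went this way in 1 pair only. Snai1 was higher in 687g than in Epcam hi (2.17, adjusted p = 7.03e-05) but lower in pB3 than in pB2 (-0.77, adjusted p = 0.0443). Snai2 was higher in pB3 than in pB2 (2.49, adjusted p = 0.00105) but not called in 687g against Epcam hi (-0.79, adjusted p = 0.205).

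**Figure D5:**
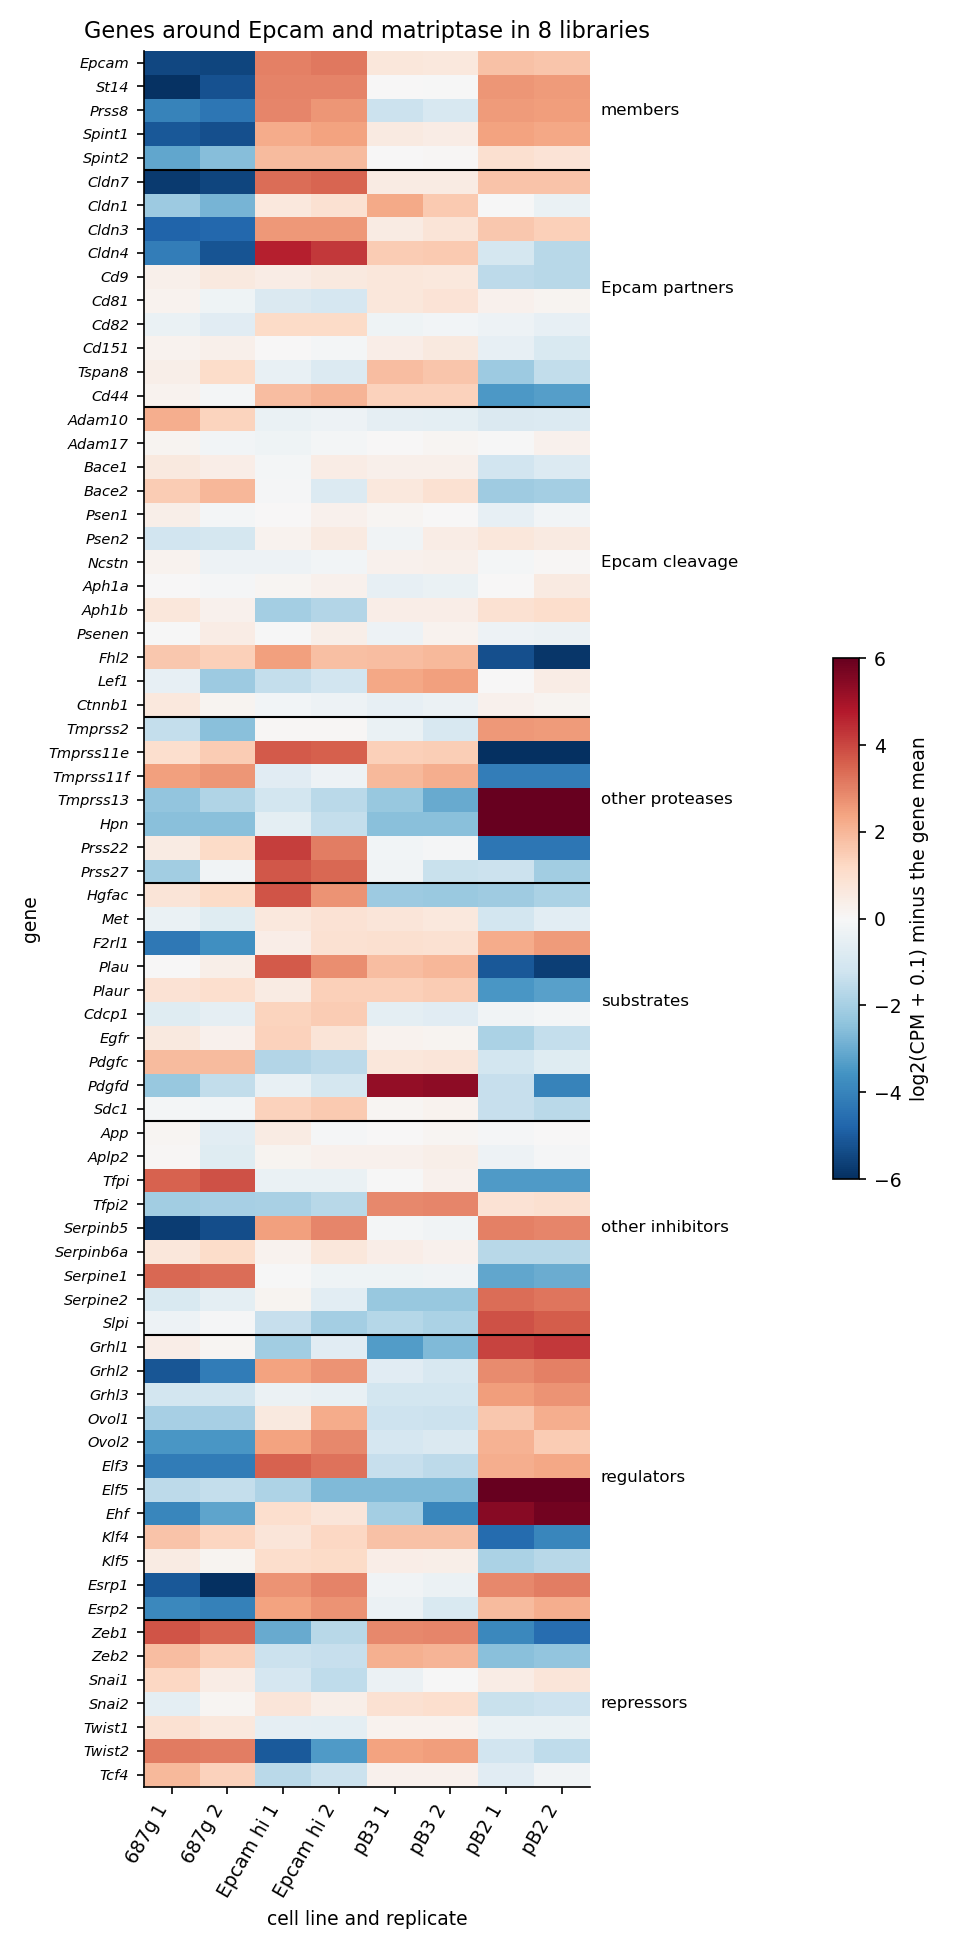
Each gene of the 5 and of the 7 lists that passed the filter (rows) in the 8 libraries (columns), as log2(CPM + 0.1) minus the gene's mean over libraries, with colours ending at -6 and 6. The top rows and many regulators are blue in 687g and red in Epcam hi and pB2, and the Zeb rows show the reverse. Substrates are mostly higher in Epcam hi than in pB2, and the other proteases show no common pattern.

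The list counts of the next 2 comparisons stand beside other shares of all genes that passed the test. These were 51.4% in Epcam hi against pB2 and 25.8% in 687g against pB3. In Epcam hi against pB2, where Epcam and Spint2 were higher, 7 of the 10 partners were higher and 1 lower (median 1.43). There 8 of 10 substrates and receptors were higher and 2 lower (median 2.33), and the regulators gave 3 higher and 4 lower (median -0.22). The 7 repressors gave 3 higher and 3 lower (median -0.13). In 687g against pB3, 6 of 10 partners were lower (median -1.17), 5 of 12 regulators were lower and 1 higher (median -2.55, or -1.06 with 5 genes at 0 in a line held at 3 counts), and 4 of 7 repressors were higher (median 0.64).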

How the data were processed

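Whole-number read counts per gene were deposited by the authors for 8 libraries of 4 mouse cell lines, 2 each. Per the labels and the submitters' processing notes, single-end reads of poly(A) libraries were aligned with STAR 2.6.1a to GRCm38 (mm10) with an Ensembl annotation and counted by strand with featureCounts. How reads shared by similar genes were counted is not given in the sources used here. Symbols were matched by Ensembl ID for 53274 of 53379 genes. Genes were filtered with filterByExpr, scaled by TMM and tested with edgeR 4.0.16 (quasi-likelihood, 1 coefficient per line, all 8 libraries, Benjamini-Hochberg over 15890 genes, call at adjusted p under 0.05) in R 4.3.3. The test was checked on simulated data. All 5 genes passed the filter. CPM use TMM-scaled totals, and TPM use the union of exons. Counting intervals are exact 95% intervals, and they and the 3-count floor cover counting error only. Other SE and 95% intervals are built from the fitted change and its F statistic. They may be too narrow where a line has few counts. Alternatives were DESeq2 1.42.0, limma 3.58.1 (voom), other scalings, no filter, subsets of lines, a replicate block, other lengths and leaving out each library. The genes and lists were chosen with earlier results of these data known. Named list genes are, per list and pair, the 2 called genes with the largest fitted change and at least 10 CPM in the higher line. Marker genes, the nearest tested gene on the lower-coordinate side of Epcam and genes said to be named after their values were seen are named besides.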

Additional observations from a re-analysis of the deposited data

Results flagged for a closer look

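For each of the 5 genes, the difference between the 687g and Epcam hi lines differed from the difference between the pB3 and pB2 lines by a test of that difference (edgeR interaction contrast, adjusted over all genes). On the log2 scale it was -7.54 for Epcam, -6.17 for St14, -4.13 for Prss8, -6.23 for Spint1 and -3.86 for Spint2. The adjusted p was 6.09e-05 or lower for each, and 37.7% of all genes tested had such a difference. Both 687g libraries lay below both Epcam hi libraries, and both pB3 libraries below both pB2 libraries, for every gene. For Prss8 the value rests on 3 counts in 687g.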

How the results depend on the processing

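Of 520 results of the 5 genes under an alternative, 519 kept direction and side of the threshold. The exception was Spint1 in Epcam hi against pB2, called in neither case, at -0.04 with all libraries and 0.035 (adjusted p = 0.921) without Epcam hi replicate 1 (range -0.20 to 0.035 when each library was left out in turn). Without 687g replicate 1, St14 in Epcam hi against pB2 came to an adjusted p of 0.0506 (0.0506 to 0.399 over its alternatives). Among calls, the nearest to the threshold was Spint2 in pB3 against pB2, with -0.92 to -0.81 and an adjusted p of up to 0.0361 when 1 library was left out, and -1.05 with total counts. Total counts moved the median of all genes to -0.17 in that comparison, -0.20 in 687g against pB2, -0.15 in 687g against Epcam hi and 0.11 in Epcam hi against pB3. Leaving out 1 library gave 2402 to 4991 called genes in 687g against pB3 (4093 with all), with 2474 without pB3 replicate 1 and 2402 without pB3 replicate 2. In Epcam hi against pB3 it gave 2855 to 6103 (4666 with all), with 2855 and 2909 without these libraries. Each leaves 1 pB3 library, assumed to vary like the other lines, and the cause was not tested. The median ratio of St14 to the inhibitors over the 8 libraries was 0.138 and became 0.216 with the longest annotated transcript and 0.106 with the longest coding transcript, a length chosen after seeing the data. For Prss8 it was 0.0506, then 0.0367 and 0.0166. By Pearson correlation in place of RMS difference, 1 of the 3 most similar genes was shared for Prss8 and for Spint2. With 100 in place of 20 neighbours, the median around Spint2 in pB3 against pB2 turned to -0.37, against 0.19, and that around Spint1 in 687g against pB2 to 0.11, against -0.61. The replicate numbers of the lines pair nothing known, and same-numbered libraries did not deviate together (r of -0.0983 to 0.173). With a replicate block, 5653 genes were called in 687g against Epcam hi, 6995 in pB3 against pB2, 8006 in Epcam hi against pB2, 4016 in 687g against pB3, 4540 in Epcam hi against pB3, 8158 in 687g against pB2 and 5913 in the difference between pairs, and no call of the 5 genes changed (Spint2 in pB3 against pB2: -0.86, adjusted p = 0.00165). At 3 and 5 counts, Prss8 and Spint1 in 687g are limited by depth.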
